A study of Homo sapiens with 4 samples.

Results

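The genes described here are 9 genes of antigen presentation by major histocompatibility complex (MHC) class I: the heavy chains HLA-B, HLA-C, HLA-E and HLA-F, the light chain B2M, the peptide transporter subunits TAP1 and TAP2, the loading factor TAPBP (tapasin) and the transcriptional activator NLRC5. They were chosen by gene name from 55764 gene names listed, and all 9 were found. The cells were TE5, an established human oesophageal squamous cell carcinoma line. In 2 libraries (ETS1) the cells had been infected with a lentiviral vector that expresses human ETS1, a transcription factor, from a CMV promoter, and in the 2 control libraries with the empty backbone (genotype WT in the labels). Both groups had gone through selection for stable carriage. The labels number the libraries 1 and 2 and do not say whether these are separate infections, passages or clones, so p-values measure the spread between these libraries, which may be technical. With 2 libraries against 2, an exact permutation test of a single gene has 0.333 as its smallest possible two-sided p.

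A class I molecule is a heavy chain held together with beta-2-microglobulin, the product of B2M, and a short peptide. Peptides made by the proteasome in the cytosol are carried into the endoplasmic reticulum by the TAP1-TAP2 transporter, and tapasin holds empty class I molecules next to that transporter until a peptide fits. CD8 T cells read the classical chains, among them HLA-B and HLA-C, while HLA-E and HLA-F are ligands of receptors on natural killer cells. NLRC5 activates most of these genes from a shared promoter module whose Y box, a CCAAT sequence, is bound by NF-Y, and interferons raise them further. ETS1 binds DNA at sequences with a GGAA core.

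Levels are given as FPKM (fragments scaled to the gene's length and the library's size). The totals behind the FPKM were between 40414703 and 44182830 reads in the controls and between 56610221 and 57377307 in the ETS1 libraries, as recovered from the values. ETS1 itself was listed at 0.491 and 0.509 FPKM in the controls and at 1.84 and 1.87 FPKM in the ETS1 libraries, so the labels matched the overexpressed gene. Of the squamous markers, SOX2 had 2.72 and 3.13 FPKM in the controls and 3.52 and 3.82 FPKM with ETS1 (0.25, limma adjusted p 0.0301), a call lost under 6 of 12 alternatives (adjusted p up to 0.130). The defining squamous genes KRT5, KRT14, KRT6A and TP63 were absent or nearly so, at 0 in each control and at most 0.0165 FPKM with ETS1. Of 5 epithelial markers, the keratin KRT8 rose from 3.91 and 3.87 to 6.48 and 6.59 FPKM (0.62 on the log2 scale) and its partner KRT18 fell from 10.2 and 10.5 to 8.35 and 8.29 FPKM (-0.29). EPCAM went from 1.37 and 1.36 to 0.915 and 1.124 FPKM and did not pass (-0.23, limma adjusted p 0.0525), but passed as lower under 4 of 12 alternatives, among them voom on recovered reads (-0.45, adjusted p 0.0221). CDH1, under the filter, had 0.571 and 0.567 FPKM in the controls and 1.08 and 0.916 FPKM with ETS1, and KRT19 was at most 0.0224 FPKM. Of 7 leukocyte markers, whose cells carry much class I RNA, PTPRC, CD3E, MS4A1, CD68 and LYZ did not go above 0.0696 FPKM. The summed level of the 7 markers was 0.644 to 0.673 FPKM in the controls and 0.767 to 0.896 FPKM in the ETS1 libraries, nearly all of it from CD14 and ITGAM, and 4 fibroblast and endothelial markers summed to 2.10 to 2.27 and 2.92 to 3.04 FPKM, most of it COL1A1. The part of either list in the results was not tested. In bulk RNA, more cells with a transcript and more transcript per cell cannot be told apart.

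Of the 9 genes, 8 reached a mean of 1 FPKM over the 4 libraries and were tested with limma among 14306 genes on the log2(FPKM + 1) scale. HLA-B, HLA-C, HLA-F and TAPBP rose with ETS1 and B2M fell (limma, adjusted p under 0.05), while HLA-E, TAP1 and TAP2 did not pass. Of all tested genes 30.7% were called higher and 28.4% lower, 59.1% in all, so most genes moved, and with 8 members a count of 4 higher and 1 lower is no result about the members as a group. The same 4 and 1 members were called in the authors' deposited table, which calls 25.3% of its 15683 genes with an adjusted p higher and 25.9% lower, and by voom on recovered reads (31.7% and 31.9%). The median log2 change of the 8 genes was 0.092, against 0.016 over all tested genes. No overlap between the groups was seen for 4 of the 8 upward and 3 downward, where 43.1% of tested genes lay wholly higher and 38.9% wholly lower.

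**Figure D1:**
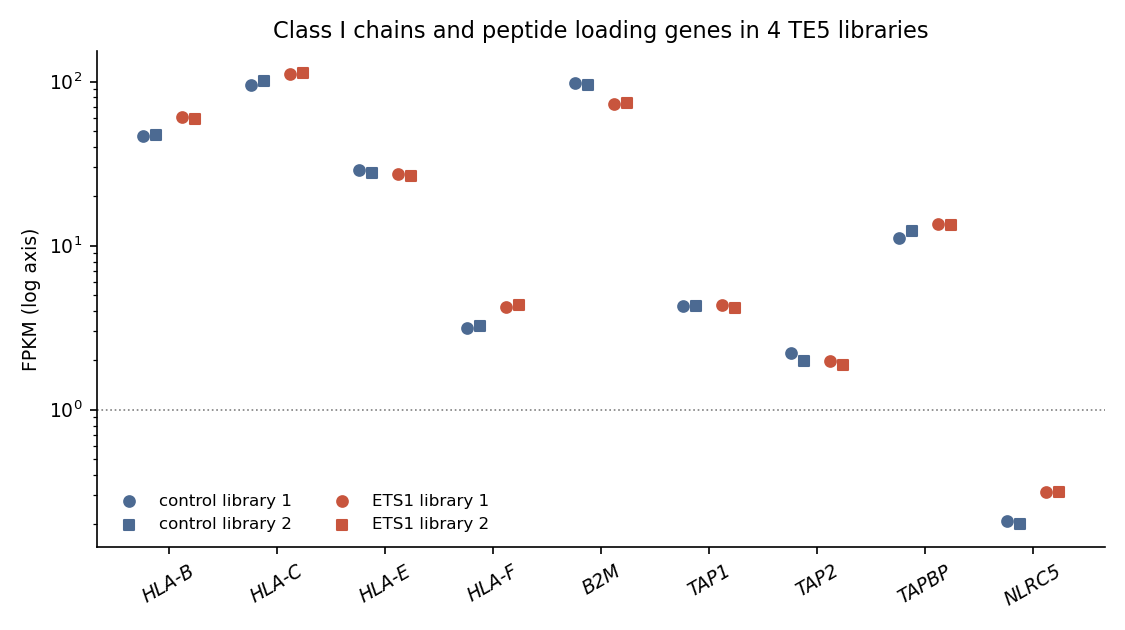
FPKM (log axis) of each of the 9 genes in the 4 libraries, control in blue and ETS1 in red, with circles for libraries numbered 1 and squares for those numbered 2; the dotted line is 1 FPKM, the mean a gene had to reach to be tested. HLA-C and B2M stood together near 97 FPKM in the controls and apart in the ETS1 libraries, and NLRC5 was the only member under the line.

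The promoters of the members that rose and of B2M are shown because the NF-Y box and the interferon element of class I genes are known to lie in this region. RefSeq starts on GRCh38.p14 were matched for 7 of the 9 members. Capitals mark CCAAT, read on either strand, and the interferon-stimulated response element core, 2 copies of GAAA with 2 bases between them, also on either strand, in the runs of bases -200 to -41 before the RefSeq start for HLA-B (chr6:31357220-31357379, minus strand), HLA-C (chr6:31272133-31272292, minus strand) and B2M (chr15:44711317-44711476, plus strand), and in short sites for HLA-F (chr6:29723352-29723381, plus strand) and TAPBP (chr6:33314083-33314098, minus strand).
HLA-B: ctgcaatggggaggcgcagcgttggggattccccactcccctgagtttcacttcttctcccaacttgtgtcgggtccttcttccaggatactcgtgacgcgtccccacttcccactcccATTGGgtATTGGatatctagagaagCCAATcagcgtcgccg
HLA-C: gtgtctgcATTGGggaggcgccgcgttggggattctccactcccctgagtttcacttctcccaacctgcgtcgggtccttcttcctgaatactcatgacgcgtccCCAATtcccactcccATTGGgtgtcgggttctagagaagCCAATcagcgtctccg
HLA-F: ATTGGgcgtcgcgtttctagagaagCCAAT
TAPBP: GAAAGTGAAAGTGAAA
B2M: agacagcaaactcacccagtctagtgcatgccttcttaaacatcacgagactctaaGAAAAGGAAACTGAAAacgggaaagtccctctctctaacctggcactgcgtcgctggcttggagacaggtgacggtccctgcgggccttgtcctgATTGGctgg
In the 250 bases before the start, HLA-B held 3 matches to CCAAT, HLA-C 4, HLA-F 2, B2M 1 and the first of 2 listed starts of TAP1 also 1, at -249. The second start of TAP1, TAP2 and TAPBP held none, and 32.0% of 35114 promoters held any. The 2 capitalized boxes of HLA-F stood at -82 and -57, and HLA-B and HLA-C each had a box at -56. The promoter of B2M had its box at -49. An exact match to that element core was found in HLA-F, B2M, TAP2, TAPBP and the first start of TAP1, with a background of 3.02%. The 2 matches in B2M overlapped each other, as did those in TAPBP. HLA-B and HLA-C held no exact match. Inexact forms of the element were not searched, so whether HLA-B or HLA-C holds such a form was not tested.

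The NF-kB site was matched in HLA-B, HLA-C, B2M, TAPBP and that start of TAP1, with a background of 9.96%. TGACG, found in 21.2% of promoters, was matched in HLA-B, HLA-C, B2M and TAP2, and the full TGACGTCA, which contains it (1.65%), in none of the 7. The ETS form CCGGAAG was found before the second start of TAP1 alone, with a background of 8.52%. The shorter form GGAAG, which lies within it, was found in HLA-B, HLA-C, HLA-F, TAP1 and TAP2, but 65.1% of all promoters hold it. GGAA, the core given for ETS1, was not searched on its own, and the printed window of B2M also holds it. The 250 bases of HLA-B were 89.0% identical to those of HLA-C and 80.4% identical to those of HLA-F, against 49.5% to those of B2M. A match is a description of letters in this window and is no evidence of binding.

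Among the heavy chains, HLA-C was the most abundant. It had 94.8 and 100.2 FPKM in the controls and 111.6 and 112.3 FPKM in the ETS1 libraries. The ETS1 libraries were both higher, by a ratio of 1.15 between group means (97.5 ± 3.79 to 111.9 ± 0.556 FPKM, SD, n = 2 each). On the log2 scale HLA-C was higher by 0.20 (standard error 0.035, limma adjusted p 0.00783). HLA-C is read by T cells and by inhibitory receptors of natural killer cells. Quantile normalization gave 0.35 (adjusted p 0.00192), and the test was passed under all 13 alternatives, whose adjusted p values lay between 0.000164 and 0.0432.

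HLA-B, the most polymorphic of the classical chains, had 46.5 and 47.5 FPKM in the controls and 60.6 and 59.2 FPKM in the ETS1 libraries. The groups did not overlap, and the ratio of 1.27 was larger than that of HLA-C. Its log2 change of 0.34 (standard error 0.029, 95% interval 0.27 to 0.42, limma adjusted p 0.00108) passed under all 13 alternatives. HLA-B made up 26.7% ± 0.170 of the summed FPKM of the 4 heavy chains in the controls and 29.5% ± 0.356 in the ETS1 libraries (SD, n = 2 each). The class I chains are close in sequence, the line's own alleles can differ from the reference, and the annotated span of HLA-B overlaps that of HLA-C, so how reads were split among HLA-B, HLA-C, HLA-F and the pseudogenes is uncertain.

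HLA-F, a chain kept mostly inside the cell and shown in open form on activated cells, was far lower, with 3.15 and 3.24 FPKM in the controls and 4.23 and 4.33 FPKM in the ETS1 libraries. Both ETS1 values were higher, by a ratio of 1.34. The log2 change on the log2(FPKM + 1) scale was 0.33 with a standard error of 0.041 (limma adjusted p 0.00282), and it passed under all 12 alternatives that could test it. HLA-E, which presents leader peptides of other class I chains to NKG2A receptors, had 28.7 and 27.9 FPKM in the controls and 27.4 and 26.6 FPKM in the ETS1 libraries. Its change of -0.066 did not pass (95% interval -0.15 to 0.017, limma adjusted p 0.133). The 50 nearest tested genes had a median change of 0.079, and with that local median removed HLA-E passed as lower (-0.15, adjusted p 0.00528). That p takes the removed median as known without error.

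B2M encodes the chain that class I heavy chains generally need to fold and reach the cell surface. It had 97.98 and 95.9 FPKM in the controls and 73.0 and 74.5 FPKM in the ETS1 libraries. Both ETS1 values were lower, with group means of 96.9 ± 1.49 and 73.8 ± 1.08 FPKM (SD, n = 2 each) and a ratio of 0.761. On the log2 scale B2M changed by -0.39 (standard error 0.028, 95% interval -0.46 to -0.32, limma adjusted p 0.000789). B2M (chromosome 15, 44711487 to 44718877, plus strand, GENCODE 29 on GRCh38) lies where most genes were lower. Among the 50 tested protein-coding genes nearest to it the median change was -0.30. Of these 45 had a negative change, and in 17 it was at least as large as that of B2M. Lower values were found for 279 of the 343 genes of that kind on chromosome 15 (81.3%, median change -0.23), against 44.8% of 10870 over all chromosomes. With the local median removed the change of B2M was -0.086 (limma adjusted p 0.0324), and under quantile normalization it was -0.25 (adjusted p 0.00246). The local median was subtracted as a fixed value, so the p of that fit leaves out its error and the spread among the neighbours. The part of the position in the fall of B2M was not tested further.

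Near the members on chromosome 6 the median changes were close to 0. HLA-B (chromosome 6, 31269491 to 31357188, minus strand), HLA-C (31268749 to 31272130, minus strand), HLA-F (29722775 to 29738528, plus strand) and TAPBP (33299694 to 33314387, minus strand) lie in the MHC on chromosome 6, where 100 other tested protein-coding genes between 28 and 34 Mb had a median change of 0.029 and 46 of them were lower. Of the 50 genes nearest to each, 3 rose as far as HLA-B, 8 as far as HLA-C, 6 as far as HLA-F and 12 as far as TAPBP. These neighbours leave out only the gene itself, so other members can be among them. HLA-E (30489467 to 30494205, plus strand), TAP1 (32845209 to 32853978, minus strand) and TAP2 (32821833 to 32838780, minus strand) lie in the same region, and NLRC5 on chromosome 16 (56989485 to 57083531, plus strand).

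**Figure D2:**
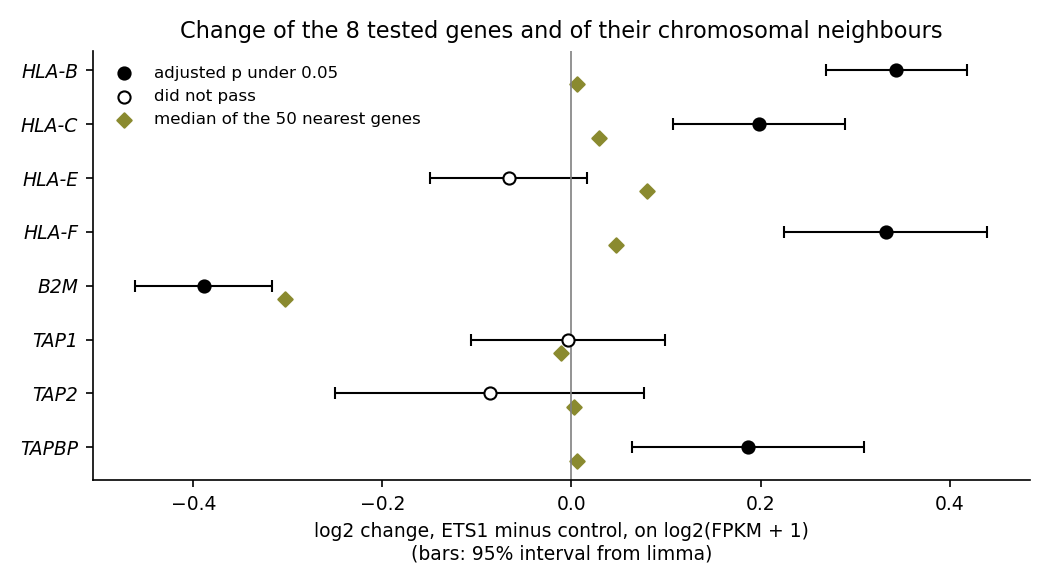
Log2 change (ETS1 minus control, log2(FPKM + 1) scale, horizontal axis) of the 8 tested genes with 95% intervals from limma, filled where the adjusted p was under 0.05; diamonds give the median change of the 50 nearest tested protein-coding genes. The diamonds of the chromosome 6 genes lie between -0.011 and 0.079, and that of B2M lies at -0.30, close to the value of B2M itself.

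HLA-B, HLA-C and HLA-F thus rose while the transcript of their shared partner B2M fell. The summed FPKM of HLA-B, HLA-C, HLA-E and HLA-F was 173.2 and 178.8 in the controls and 203.7 and 202.5 in the ETS1 libraries. Divided by the FPKM of B2M it was 1.77 and 1.87 in the controls and 2.79 and 2.72 in the ETS1 libraries, and the groups did not overlap. The ratio of heavy chain to B2M was 1.52 times as high in the ETS1 libraries, and 1.56 times with HLA-B and HLA-C alone. Both the level of this ratio and, through the weight of each chain in the sum, its change between groups depend on the gene lengths the authors used. It is given as a description, with no test, and was not recomputed with the local chromosomal median removed. In that fit B2M changed by -0.086 in place of -0.39, HLA-B by 0.34 and HLA-C by 0.17.

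**Figure D3:**
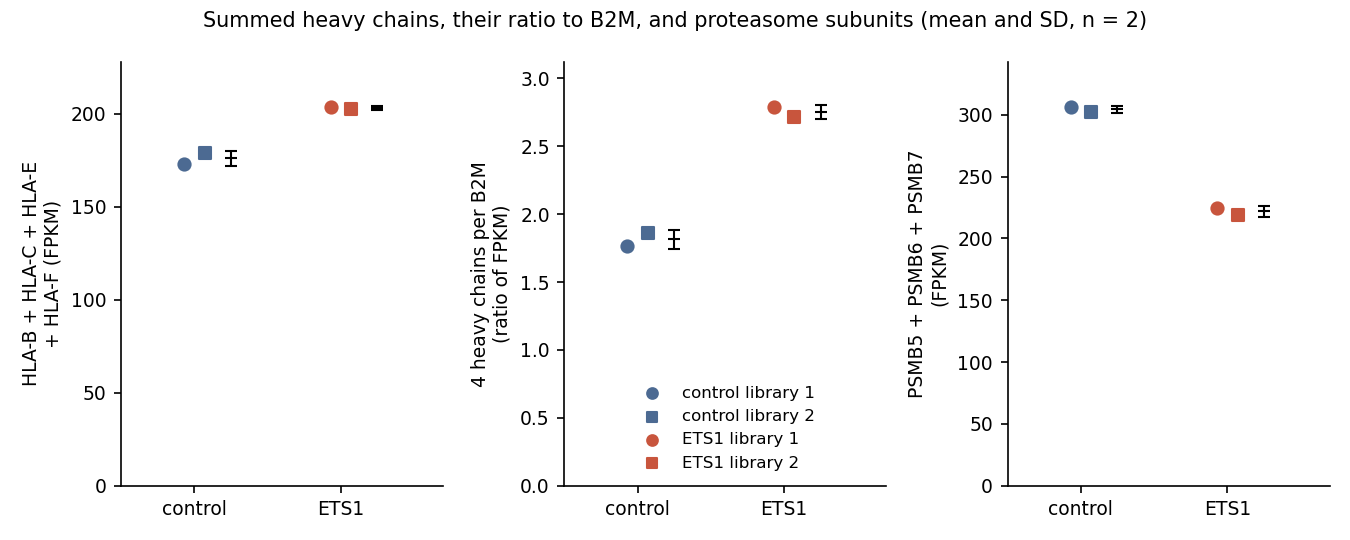
Summed FPKM of 4 heavy chains (left), the same sum divided by the FPKM of B2M (middle) and summed FPKM of the proteasome subunits PSMB5, PSMB6 and PSMB7 (right) in each library, with the mean and SD of each group (n = 2) beside the points. The middle panel rises from 1.82 ± 0.0691 to 2.75 ± 0.0523 and the right panel falls from 304.4 ± 2.70 to 221.9 ± 4.35.

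TAP1, TAP2 and TAPBP were less abundant than HLA-B, HLA-C, HLA-E and B2M. TAP1, 1 of the 2 transporter subunits, had 4.30 and 4.26 FPKM in the controls and 4.34 and 4.19 FPKM in the ETS1 libraries. The groups overlapped, and the log2 change of -0.0038 had a 95% interval of -0.11 to 0.099 (limma adjusted p 0.942). TAP2, its partner, had 2.21 and 1.98 FPKM in the controls and 1.97 and 1.86 FPKM in the ETS1 libraries, with a log2 change of -0.086 that did not pass (95% interval -0.25 to 0.077, adjusted p 0.286 from limma). In the controls TAP1 stood at percentile 39.0 and TAP2 at percentile 19.5 of the tested genes, against 96.9 for both HLA-C and B2M.

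TAPBP, the bridge between the transporter and empty class I molecules, had 11.2 and 12.2 FPKM in the controls and 13.6 and 13.3 FPKM in the ETS1 libraries. All 4 values kept the groups apart, and the log2 change was 0.19 with a standard error of 0.047 (limma adjusted p 0.0233). It lost the threshold with no filter (adjusted p 0.0848) and when either ETS1 library was left out (0.0967 without ETS1 replicate 1 and 0.0765 without ETS1 replicate 2). For TAPBP the authors' deposited table has a log2 fold change of 0.17 (adjusted p 0.0119).

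NLRC5, the activator of the class I promoters, was low, under 1 FPKM in each library. It had 0.208 and 0.200 FPKM in the controls and 0.316 and 0.313 FPKM in the ETS1 libraries. The smallest whole reads that give these values were 104 and 109 in the controls, and 224 and 219 with ETS1. The gene length they imply, 12359 bases, is close to the 12386 annotated exon bases, so a multiple of them would need a longer gene. The ETS1 libraries were both higher, by an FPKM ratio of 1.54. The exact 95% binomial interval of that ratio from these pooled reads was 1.31 to 1.83, which covers counting error only. NLRC5 was under the filter and was not tested in the main comparison. With no filter its change on the log2(FPKM + 1) scale, which understates changes of such low genes, was 0.13 and did not pass (limma adjusted p 0.0755).

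Other genes of the pathway were taken from 5 lists of 57 genes in all, of which 43 were tested. In these lists 22 were called higher and 7 lower (51.2% and 16.3%), with a median log2 change of 0.10, beside 30.7% and 28.4% and a median of 0.016 over all tested genes. The genes were chosen with earlier results known and no test compares the lists with other genes, so nothing particular to the pathway is read from these shares. Leaving out the ETS1 libraries in turn moved the number called higher to 14 without ETS1 replicate 1 and 12 without ETS1 replicate 2, while over all tested genes it went from 4394 to 3117 and 2845.

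**Figure D4:**
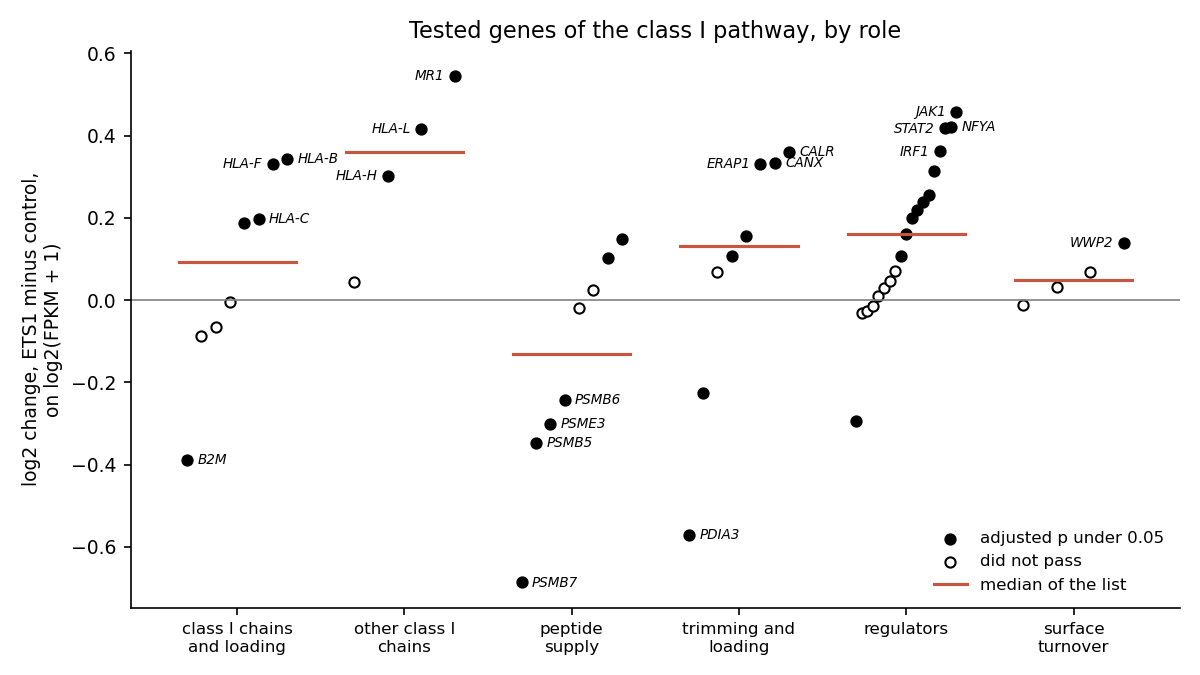
Log2 change (ETS1 minus control, log2(FPKM + 1) scale, vertical axis) of each tested gene by role, filled where the limma adjusted p was under 0.05, with the median of each group as a line; names are given for called genes among the 4 largest changes of each group, and TAPBP is the unnamed filled point beside HLA-C. Peptide supply is the only group with a median below 0 (-0.13), and the regulators have 11 filled points above 0 and 1 below.

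The proteasome subunits that cut peptides were measured in both of their forms. PSMB5, PSMB6 and PSMB7, the catalytic subunits of the standard proteasome, fell. PSMB7 had 131.2 and 129.5 FPKM in the controls and 81.4 and 79.9 FPKM in the ETS1 libraries, a log2 change of -0.69 (limma adjusted p 0.000439). PSMB5 fell by 0.35 and PSMB6 by 0.24 on the log2 scale (limma adjusted p 0.000843 and 0.00400), and under quantile normalization these falls were 0.21 and 0.091. PSMB8, PSMB9 and PSMB10, which replace them in the immunoproteasome that interferon induces, did not exceed 0.479 FPKM in any of the 4 libraries. Their summed FPKM was 0.245% and 0.254% of that of the standard subunits in the controls and 0.420% and 0.379% in the ETS1 libraries, a ratio of 1.60. Within it the sum of the immunoproteasome subunits was 1.17 times as high and that of the standard subunits 0.729 times as high as in the controls. PSMB8 had 0.111 and 0.0565 FPKM in the controls and 0.130 and 0.0793 FPKM with ETS1, and PSMB9 had 0.387 and 0.479 FPKM in the controls and 0.391 and 0.310 FPKM with ETS1, so both overlapped between groups. PSMB10, named after its values were seen, fits 19 reads in each control and 45 and 46 reads with ETS1 as the smallest whole numbers, and passed as higher with no filter (0.20, limma adjusted p 0.0440).

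Of the 8 tested genes of peptide supply 2 were called higher and 4 lower (30.7% and 28.4% over all tested genes). PSME3, the nuclear proteasome activator, fell by 0.30 on the log2 scale (limma adjusted p 0.00146), 0.19 under quantile normalization. PSME1 and PSME2 are subunits of the interferon-inducible activator. PSME1, 1 of the 2 genes called higher (0.20 under quantile normalization), went from 29.3 ± 0.595 to 31.5 ± 0.425 FPKM (SD, n = 2 each; 0.10, limma adjusted p 0.0355). It lost the threshold under 8 of 13 alternatives, the authors' deposited table among them (adjusted p 0.270), while PSME2 had 20.2 and 19.8 FPKM in the controls and 19.9 and 19.5 FPKM in the ETS1 libraries.

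In the trimming and loading list 5 of 8 tested genes were called higher and 2 lower, where 30.7% and 28.4% of all tested genes were. CALR, the chaperone that hands folded heavy chains to the loading complex, had 131.5 and 137.2 FPKM in the controls and 173.6 and 171.9 FPKM in the ETS1 libraries, a log2 change of 0.36 (limma adjusted p 0.00117). CANX, which binds newly made heavy chains, rose by 0.33 (adjusted p 0.00297 from limma; 0.51 under quantile normalization). PDIA3, the disulphide isomerase of the loading complex, went the other way, from 109.6 and 114.5 FPKM in the controls to 77.3 and 73.0 FPKM in the ETS1 libraries (-0.57, limma adjusted p 0.000803). PDIA3 lies on chromosome 15 (43746392 to 43773279), and its 50 nearest genes had a median of -0.31. With that median removed it was -0.26 (limma adjusted p 0.000476).

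The aminopeptidases that trim peptides in the endoplasmic reticulum were also higher. ERAP1 went from 1.23 and 1.25 FPKM to 1.80 and 1.83 FPKM (0.33, limma adjusted p 0.00638). The change was 0.52 with a pseudocount of 0.1 and 0.53 by voom on recovered reads, and it lost the threshold with the local chromosomal median removed (0.11, adjusted p 0.0697). ERAP2, named after its values were seen, had 0.454 and 0.449 FPKM in the controls and 1.32 and 1.40 FPKM in the ETS1 libraries, a ratio of 3.01. It was under the filter, and with no filter it passed (0.70, limma adjusted p 0.0114). For ERAP2 the authors' deposited table has a log2 fold change of 1.53 (adjusted p 3.46e-20).

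Of the other class I chains 4 of 9 were tested and 3 were called higher, 2 of them pseudogenes, where 30.7% of all tested genes were. MR1, which presents vitamin B metabolites to MAIT cells, had 1.56 and 1.45 FPKM in the controls and 2.71 and 2.60 FPKM in the ETS1 libraries (0.55, limma adjusted p 0.00161). The pseudogenes HLA-L (0.42, limma adjusted p 0.00655) and HLA-H (0.30, adjusted p 0.0222 from limma) were also higher, and both can share reads with expressed class I genes. HLA-L had 0.835 and 0.764 FPKM in the controls and 1.48 and 1.33 FPKM in the ETS1 libraries, and without a pseudocount of 1 FPKM, by voom on recovered reads, its change was 0.79. HLA-H lost the threshold with no filter (0.0981), without control replicate 1 (0.0691) and without ETS1 replicate 2 (0.0562). FCGRT, the neonatal Fc receptor chain, which also pairs with beta-2-microglobulin, did not pass (0.044, 95% interval -0.061 to 0.15).

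Of the 19 tested regulators 11 were called higher and 1 lower (57.9% and 5.26%, beside 30.7% and 28.4% of all tested genes). JAK1, a kinase of the interferon receptors, rose by 0.46 (limma adjusted p 0.000632; 0.27 with the local chromosomal median removed), and STAT2, a transcription factor of type I interferon signalling, by 0.42 (limma adjusted p 0.00128). IRF1, which binds the interferon element of class I promoters, had 1.41 and 1.62 FPKM in the controls and 2.18 and 2.28 FPKM in the ETS1 libraries (0.36, limma adjusted p 0.00837). NFYA, the regulatory subunit of NF-Y, rose by 0.42 (limma adjusted p 0.00513), with 13.9 and 12.2 FPKM in the ETS1 libraries against 9.61 and 9.36 FPKM in the controls. NFYC, another subunit of NF-Y, was the 1 regulator called lower (-0.29, adjusted p 0.00366 from limma). CIITA, the class II counterpart of NLRC5, did not go above 0.0232 FPKM.

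Of the 4 genes of surface turnover 1 was called higher, where 30.7% of all tested genes were. WWP2, a ubiquitin ligase, rose by 0.14 (limma adjusted p 0.0401) and lost the threshold under 9 of the 12 alternatives that could test it. KIAA0247 (SUSD6), TMEM127 and MARCH9 had changes of -0.012, 0.068 and 0.031 and did not pass (limma adjusted p 0.833, 0.224 and 0.631).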

How the data were processed

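RNA of 2 control and 2 ETS1 libraries of TE5 was sequenced in bulk. The deposited values are FPKM computed by the authors for 55764 gene names; HISAT2, HTSeq, DESeq2 and the build GRCh38 (hg38) are named in the submitters' processing notes, without role or version, and the annotation and use of strand are not given in the sources used here. A second deposited table holds 16652 genes with the same FPKM (0 cells differed). Its mean normalized count is the authors' signal over all libraries, its fold changes were deposited as log2 values, and its p-value columns are the authors' own, per the file headers.

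Genes averaging 1 FPKM or more (14306) were fitted as log2(FPKM + 1) in limma 3.58.1 (R 4.3.3) with a group term, an intensity trend, two-sided tests and Benjamini-Hochberg adjustment over those genes at 0.05. Whole reads were recovered from FPKM and the mean normalized count, and voom on them is an alternative; genes with no mean normalized count (NLRC5, PSMB8, PSMB9, PSMB10) were given the smallest whole reads that fit their FPKM. Of the former, 99.3% of the values of genes with a mean normalized count under 100, and a larger share at higher counts, fell within 0.05 of a whole number. Positions come from GENCODE 29 on GRCh38, by gene name, and promoter sequences from RefSeq on GRCh38.p14. SUSD6 was matched to its older symbol through RefSeq's table. The fit and the read recovery were checked, the fit on simulated data.

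The members, lists and tests were chosen with earlier results of these data known. Named are all members, ETS1, the tested genes of each list with the largest absolute change (up to 4), and a fixed set (IRF1, CIITA, PSMB8, PSMB9, CALR and PDIA3); 3 further genes of the lists are not reported here or counted in them, and other genes were named for their role or values after these were seen. Alternatives were a pseudocount of 0.1 FPKM, no filter, a filter at 5 FPKM, quantile normalization, scaling by trimmed means, a replicate block, the authors' deposited result, voom on recovered reads, removal of the median change of the 50 nearest genes, and leaving out each library. The removed median was taken as a fixed value, so its error is not in the p-values of that fit.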

Additional observations from a re-analysis of the deposited data

How the results depend on the processing

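HLA-B, HLA-C and B2M kept their direction and side of the threshold under all 13 alternatives, and HLA-F under all 12 that could test it. The number of members called higher was 3 or 4 throughout, and the number called lower was 1 except with the local chromosomal median removed, where it was 2 (B2M and HLA-E). The size of the B2M change ran from -0.41 to -0.086, the smallest with the local chromosomal median removed, and that of HLA-B from 0.32 to 0.49. Some changes that did not pass turned sign. HLA-E was 0.012 under quantile normalization, TAP1 was 0.0070 and MARCH9 -0.085 with the local chromosomal median removed, and over the fits that each left out a library TAP1 ran from -0.024 to 0.016 and MARCH9 from -0.025 to 0.087. With a library left out, members called higher ran from 3 to 4, pathway genes called higher from 12 to 18, the ratio of heavy chain to B2M, ETS1 over control, from 1.48 to 1.56, and all called genes from 5790 to 7680. At a mean FPKM of at least 5, 5562 of 8215 genes were called instead of 8451 of 14306, with fewer genes tested.

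Across 14306 genes the deviations of same-numbered libraries had a Pearson correlation of -0.0456. With so few libraries this cannot decide whether same-numbered libraries shared an infection, passage or batch. With the replicate block 4 members were called higher and 1 lower, 17 and 7 pathway genes, and 7283 genes in all. Depth limits NLRC5 and the immunoproteasome subunits, which have fewer than 250 reads in each library.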

Other observations

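The gene lengths behind the FPKM, inferred from the recovered reads, differed from the GENCODE 29 exon lengths for some members. That of B2M was 3153 bases against 6079, that of TAP2 4541 against 6390 and that of HLA-F 4685 against 4342, while HLA-C (2509 against 2507), HLA-E (2976 against 2975) and TAPBP (5061 against 5056) were nearly equal. Levels compared between genes move with these lengths, and the change of a single gene between groups does not. The recovered reads of B2M were 12485 and 13355 for the controls and 13209 and 13304 with ETS1, alike in number although the ETS1 libraries were deeper. Those of HLA-C were 9613 and 11103 for the controls and 16057 and 15954 with ETS1.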
